A study of Mus musculus with 6 samples.

Results

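NF-kB factors and the proteins that restrain and activate them were compared between Batf-/- and Batf+/+ regulatory T (Treg) cells. The genes were listed by name: NF-kB subunits, their inhibitors, the kinases that release them, and the TRAF adaptors and ubiquitin regulators that link receptors to those kinases. A gene entered the comparison when the array carried at least 1 probe set annotated to that gene and to no other. Of the 32 listed genes, 28 were measured, by 68 of the 45101 probe sets on the array, and 4 are not analysed here. They were set against all 18193 genes that could be measured in the same way.

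The study measured 3 arrays of Batf-/- Treg cells and 3 arrays of Batf+/+ Treg cells. The sorted cells were hCD2+ CD4+ cells of lymph node and spleen from FoxP3hCD2.Batf-/- or FoxP3hCD2.Batf+/+ mice on the C57BL/6 strain, in which human CD2 serves as a surface tag for Foxp3. Both genotypes carry the reporter, and neither was cultured or treated. The labels give no age and do not say which cells besides Treg cells lacked Batf, nor whether arrays of a genotype stand for different mice. The p-values therefore reflect only the scatter among these arrays, some of which may be technical.

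NF-kB is a family of dimeric transcription factors held in the cytoplasm by inhibitors of the IkB family. In the classical branch, receptors of the TNF and interleukin 1 families and the T cell receptor activate a kinase complex that marks the inhibitors for destruction, whereas the alternative branch runs through the kinase NIK, which ubiquitin ligases hold at a low level in resting cells. Several inhibitors are themselves induced by NF-kB and close a negative feedback loop. In Treg cells the subunit c-Rel is known for its part in the induction of Foxp3. Batf belongs to the AP-1 transcription factors, dimerises with Jun proteins and is itself induced by stimulation of T cells.

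Levels are given on a log2 scale on which 0 is the middle Batf+/+ array of each probe set, as the deposited values were centred in this way, and a gene is the mean of its probe sets. They show differences for a gene between arrays and not how abundant its transcript was, so genes at or near background look like any other, and levels of different genes cannot be compared. In bulk samples, fewer cells of a type and less RNA per cell cannot be told apart. Differences are Batf-/- minus Batf+/+, tested with limma across all genes, and a gene was called at a Benjamini-Hochberg adjusted p below 0.05.

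Batf itself followed the labels, at -3.13, -3.16 and -2.37 on Batf-/- arrays 1, 2 and 3 and at -0.13, 0 and 0.14 on Batf+/+ arrays 1, 2 and 3 (log2 difference -2.89 ± 0.19 SE, limma adjusted p = 0.000202). Of 6 Treg markers, 4 did not overlap between genotypes (12.0% of all genes did not), among them Foxp3 with a difference of -0.12 ± 0.078 on the log2 scale (SE, limma adjusted p = 0.892), Ikzf2, which encodes Helios, with -0.51 ± 0.098 (adjusted p = 0.0526) and Il2ra, the interleukin 2 receptor alpha chain, with 0.21 ± 0.072 (adjusted p = 0.394). Of these 6 and of 19 markers of B cells, myeloid cells, dendritic cells, CD8 T cells and NK cells that were measured, 0 were called. The mean over 5 B cell markers ranged from -0.023 to 0.24 on the Batf-/- arrays and from -0.087 to 0.059 on the Batf+/+ arrays. That over 6 myeloid markers ranged from -0.19 to 0.26 in Batf-/- cells and from -0.12 to 0.12 in Batf+/+ cells, and that over 5 dendritic cell markers from -0.030 to 0.23 in Batf-/- cells and from -0.077 to 0.12 in Batf+/+ cells. Batf-/- array 3 was the highest of all arrays for Lyz2, Csf1r, H2-Aa and Cd74, at 0.59, 0.47, 0.59 and 0.47, genes named after their values were seen. Of the other myeloid and dendritic cell markers, Itgam, Cd14, Adgre1 and Zbtb46 were also highest there. Fcgr3, Itgax and Flt3 were not, at 0.070, -0.13 and 0.019 on that array. Of the B cell markers, Ms4a1, Cd79a and Cd79b were highest there, at 0.34, 0.34 and 0.47. Pax5 and Cr2 were not, at -0.082 and 0.13. Cd8a was highest there at 0.13, and Cd8b1 and Ncr1 were not, at 0.030 and -0.090. The part of such cells in the values below was not tested. Because the values are centred, they cannot show whether the defining markers of any cell type were present or absent.

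In each of the 28 NF-kB pathway genes the difference between the genotypes was below 1.5-fold, as in all but 210 of 18193 genes. In size the differences of the 28 genes were not smaller than those of all genes, as given below. None of the 28 genes was called by limma, where 1.14% of all 18193 genes were called (0.313% higher and 0.830% lower in Batf-/- cells). With the array number as a replicate block, the 57 higher and 151 lower calls over all genes became 91 and 202. The pathway still had 0 there. With a background that low, a count of 0 among 28 genes is near what all genes gave and is no result about the pathway. At an unadjusted p below 0.05 there was 1 gene, Birc2, against 7.69% of all genes. The 95% interval of the difference lay within 1.5-fold in both directions for 27 of the 28 genes and within 1.2-fold for 10 of them. The exception at 1.5-fold was Tnfaip3. The share of all genes with such intervals was not counted. These intervals are not adjusted for the number of genes. As signal over background is unknown here, a narrow interval can also come from a gene at background. The standard errors ranged from 0.069 to 0.43, with a median of 0.089, against a median of 0.092 over all genes.

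**Figure D1:**
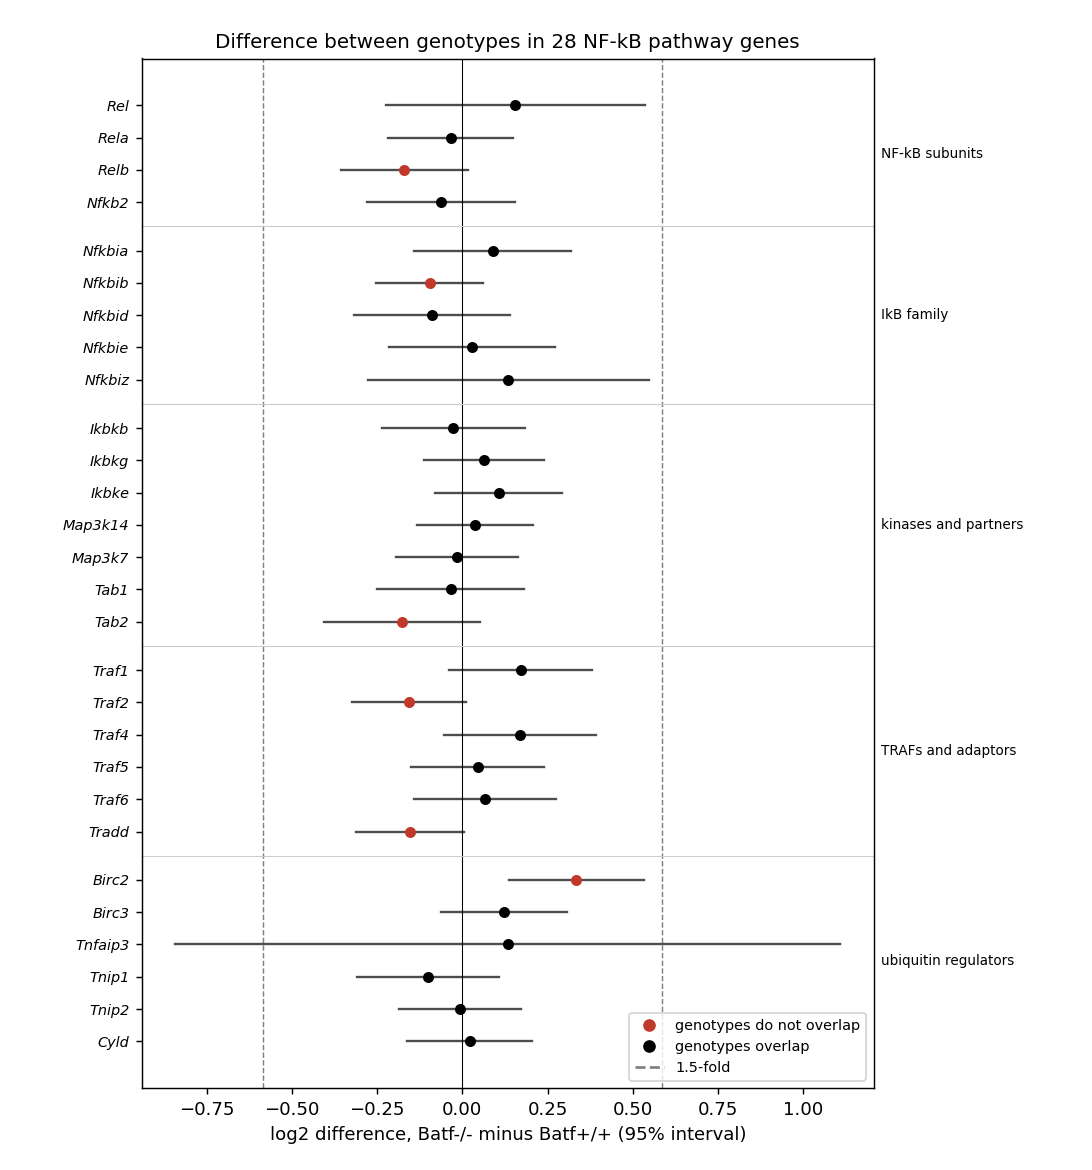
Log2 difference between Batf-/- and Batf+/+ Treg cells (Batf-/- minus Batf+/+, x axis) for 28 NF-kB pathway genes grouped by role (y axis), with points for the limma estimate, bars for its 95% interval (3 arrays per genotype) and dashed lines at 1.5-fold. The interval of Birc2 alone excludes 0, and that of Tnfaip3 alone crosses the 1.5-fold lines.

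The direction was mixed, with 15 genes above 0 and 13 below it, and the median log2 difference of the 28 genes was 0.025, against 0.0047 over all genes. The median absolute difference was 0.092 for these genes and 0.066 for all genes. In 6 of the 28 genes (21.4%) the 3 Batf-/- arrays lay on one side of the 3 Batf+/+ arrays, against 12.0% of all genes. Of these, 5 genes had all Batf-/- arrays below the Batf+/+ arrays (6.55% of all genes did), namely Relb, Nfkbib, Tab2, Traf2 and Tradd, and Birc2 had them above (5.50% of all genes did). Such a separation was not accompanied by a call in any of the 6.

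The subunits carry the DNA-binding domain of the dimers. Rel, which encodes c-Rel, was at 0.55, 0.13 and 0.10 on Batf-/- arrays 1, 2 and 3 and at 0, 0.45 and -0.13 on Batf+/+ arrays 1, 2 and 3. The genotypes overlapped, with an array of each genotype far above its companions, and the log2 difference was 0.16 ± 0.17 (SE, 95% interval -0.22 to 0.53). Leaving out Batf-/- array 1 gave a difference of 0.010, and leaving out Batf+/+ array 2 gave 0.33. Rela, the p65 subunit of the classical dimer, spanned -0.079 to 0.066 in Batf-/- cells and -0.038 to 0.13 in Batf+/+ cells, with a difference of -0.033 ± 0.081. Relb, the subunit of the alternative branch, was at -0.18, -0.21 and -0.096 on the Batf-/- arrays and at 0.12, 0 and -0.089 on the Batf+/+ arrays. Every Batf-/- array lay below every Batf+/+ array, but the gap between the closest arrays of the genotypes was narrow, and the difference of -0.17 ± 0.082 was not called (limma adjusted p = 0.730). Nfkb2, the precursor of the p52 partner of RelB, had a difference of -0.063 ± 0.096, with both of its probe sets near that value (-0.067 and -0.059).

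Among the IkB family, Nfkbia and Nfkbiz varied more between arrays than between genotypes. Nfkbia, the classical inhibitor IkB-alpha that NF-kB itself induces, was at 0.019, 0.15 and -0.098 on Batf-/- arrays 1, 2 and 3 and at 0.014, 0.026 and -0.24 on Batf+/+ arrays 1, 2 and 3. The arrays numbered 3 were the lowest of their genotype. All 5 of its probe sets had differences above 0, from 0.017 to 0.16, and the gene had a difference of 0.090 ± 0.10 (95% interval -0.14 to 0.32). Nfkbiz, a nuclear member of the family that modulates NF-kB at its target genes, was at 0.27, 0.11 and -0.22 on the Batf-/- arrays and at 0.22, 0 and -0.47 on the Batf+/+ arrays, again lowest on the arrays numbered 3 (difference 0.14 ± 0.18). Its 3 probe sets did not move together. The probe set 1457404_at had 0.25, 0.26 and 0.51 on the Batf-/- arrays and 0.15, 0 and -0.086 on the Batf+/+ arrays, with a difference of 0.31 ± 0.11, but the other probe sets gave 0.19 and -0.097 and none of them was called.

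The remaining inhibitors had differences from -0.095 to 0.028. Nfkbib, the inhibitor IkB-beta, was at -0.13, -0.086 and -0.072 on the Batf-/- arrays and at 0, 0.015 and -0.018 on the Batf+/+ arrays. The arrays of the genotypes did not overlap, and the difference of -0.095 ± 0.069 was small. Its separation came from averaging, because in each of its 2 probe sets the genotypes overlapped. Nfkbie, the inhibitor IkB-epsilon, had a difference of 0.028 ± 0.11. It was at -0.0096, 0.044 and 0.095 on the Batf-/- arrays and at 0.23, 0 and -0.18 on the Batf+/+ arrays. Nfkbid, a nuclear inhibitor that in mice is known to take part with c-Rel in the induction of Foxp3, had a difference of -0.089 ± 0.10 (95% interval -0.32 to 0.14). It was at -0.087, 0.11 and -0.064 on the Batf-/- arrays and at 0.26, 0 and -0.028 on the Batf+/+ arrays. Nfkbie and Nfkbid thus also varied more between arrays than between genotypes.

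The kinases and their partners had the smallest median absolute log2 difference by role, 0.036 over 7 genes. It was 0.11 for the 4 subunits, 0.090 for the 5 inhibitors, 0.15 for the 6 adaptors and 0.11 for the 6 ubiquitin regulators. The same role holds Tab2, the most negative difference of the pathway, and genes differ in how many probe sets were averaged. Ikbkb, the catalytic subunit IKK-beta of the classical kinase, had a difference of -0.026 ± 0.092, and Ikbkg, the regulatory subunit NEMO, had one of 0.063 ± 0.078 with all 6 of its probe sets above 0. Ikbke, a related kinase of the innate response, had a difference of 0.11 ± 0.082. Map3k14, which encodes NIK, the kinase of the alternative branch, had 0.036 ± 0.075, and Map3k7, which encodes TAK1, the kinase upstream of the classical complex, had -0.015 ± 0.079. Tab1 and Tab2 bind TAK1, and Tab2 ties it to ubiquitin chains. Tab1 had a difference of -0.034 ± 0.095. Tab2 was at -0.089, -0.057 and -0.24 on the Batf-/- arrays and at 0.24, -0.055 and -0.040 on the Batf+/+ arrays. The genotypes were separated by a narrow gap, with 0.24 on a Batf+/+ array standing apart from the others, and the difference of -0.18 ± 0.10 was not called (limma adjusted p = 0.840). It was -0.082 without Batf+/+ array 1. In each of its 2 probe sets the genotypes overlapped, so the separation came from averaging, as for Nfkbib.

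TRAF proteins are the adaptors that TNF receptors recruit, several of them ubiquitin ligases. Traf1, which NF-kB induces and which binds Traf2, was at 0.22, 0.048 and 0.16 on the Batf-/- arrays and at 0.087, 0.012 and -0.18 on the Batf+/+ arrays. The genotypes overlapped, and both probe sets had differences above 0 (0.14 and 0.20), with 0.17 ± 0.093 for the gene (limma adjusted p = 0.816). Its partner Traf2 had the opposite sign. It was at -0.22, -0.12 and -0.19 on the Batf-/- arrays and at -0.074, 0 and 0.021 on the Batf+/+ arrays, with no overlap and a difference of -0.16 ± 0.073 (95% interval -0.32 to 0.010, adjusted p = 0.710). Traf4, an adaptor better known from epithelial and neural tissue, had a difference of 0.17 ± 0.098, Traf5, which serves costimulatory TNF receptors of T cells, had 0.045 ± 0.085, and Traf6, the ligase of the interleukin 1 receptor and Toll-like receptor branch, had 0.066 ± 0.092.

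Tradd, the adaptor that joins TNF receptor 1 to Traf2, was at -0.15, -0.15 and -0.18 on Batf-/- arrays 1, 2 and 3 and at 0.0051, -0.052 and 0.022 on Batf+/+ arrays 1, 2 and 3. The Batf-/- arrays lay close together and below all Batf+/+ arrays, and the difference was -0.15 ± 0.070 (95% interval -0.31 to 0.0053, limma adjusted p = 0.678). Its 3 probe sets were all below 0 but unequal. The probe set 1429117_at had -0.33, -0.33 and -0.37 on the Batf-/- arrays and 0.063, -0.12 and 0 on the Batf+/+ arrays, a difference of -0.33 ± 0.083. The others had -0.12 and -0.011. The difference of the gene was -0.33 when probe sets whose suffix marks shared sequence were left out, which leaves 1429117_at alone, and it was not called there either (limma adjusted p = 0.153).

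**Figure D2:**
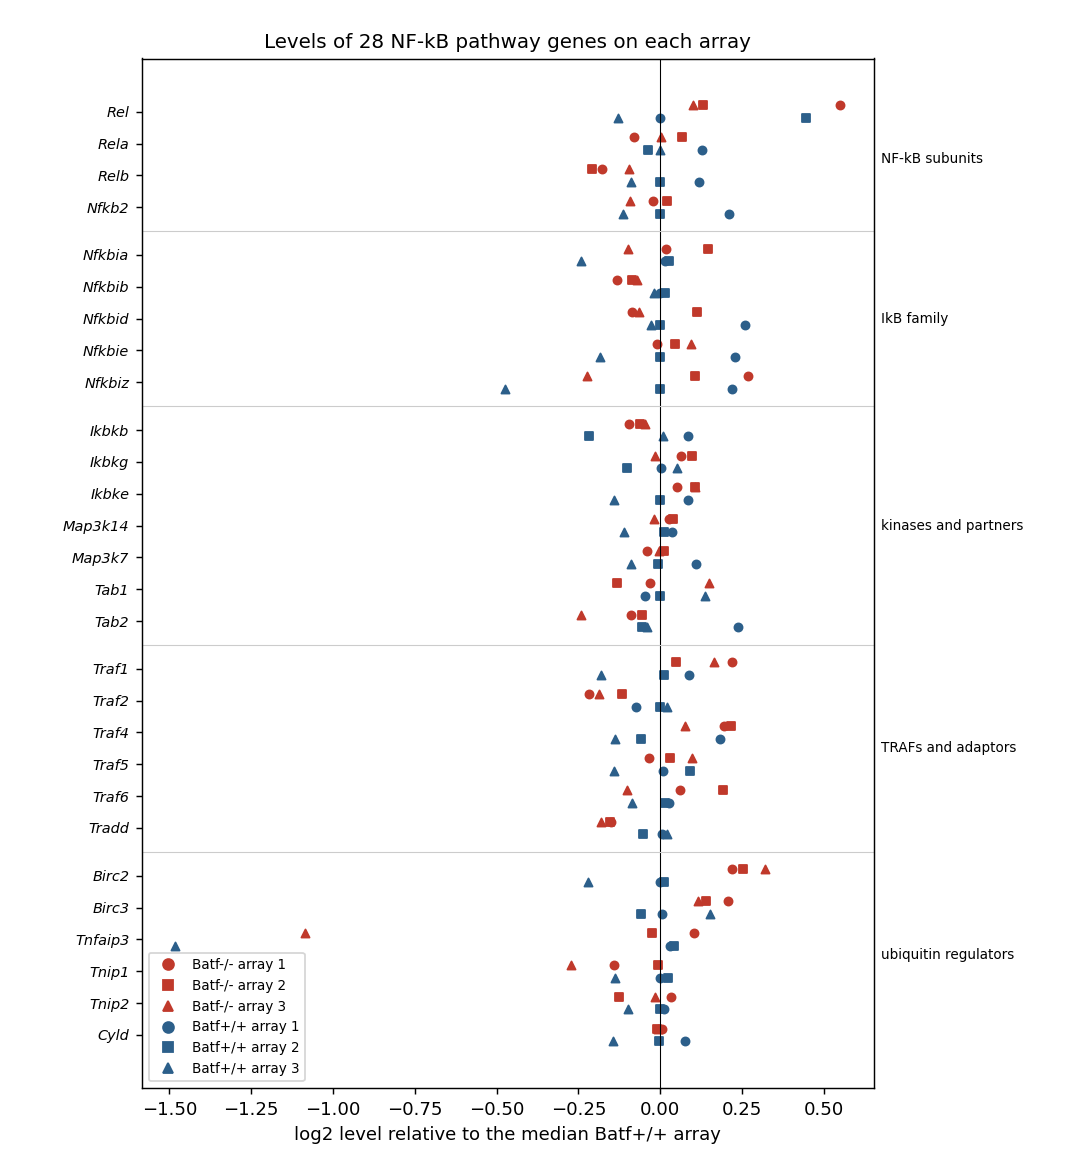
Log2 level relative to the median Batf+/+ array (x axis) of 28 NF-kB pathway genes (y axis, grouped by role) on each of 3 Batf-/- arrays (red, upper row of each gene) and 3 Batf+/+ arrays (blue, lower row), with the symbol showing the number in the array's title. Of the 168 points, 158 lie within 0.25 of 0, which the centring on the Batf+/+ arrays favours, and no share of all genes was counted. The arrays numbered 3 of both genotypes stand far to the left for Tnfaip3, at -1.09 in Batf-/- cells and -1.48 in Batf+/+ cells.

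The regulators that add or remove ubiquitin held both the largest difference and the largest spread. Birc2, which encodes the ubiquitin ligase cIAP1 that keeps NIK low and modifies proteins at TNF receptor 1, was at 0.22, 0.25 and 0.32 on Batf-/- arrays 1, 2 and 3 and at 0, 0.013 and -0.22 on Batf+/+ arrays 1, 2 and 3. All Batf-/- arrays lay above all Batf+/+ arrays by a clear gap. The log2 difference was 0.33 ± 0.087 (SE, 95% interval 0.14 to 0.53), or 1.26-fold, from 1 probe set, and it was not called (limma adjusted p = 0.182). It ranked 411 among 18193 genes by p. Left-out arrays gave between 0.26 (without Batf+/+ array 3) and 0.37 (without Batf+/+ array 2). Birc3, which encodes the related ligase cIAP2 and lies next to Birc2 with no protein-coding gene between them in RefSeq, was at 0.21, 0.14 and 0.11 on the Batf-/- arrays and at 0.0043, -0.058 and 0.15 on the Batf+/+ arrays. Its genotypes overlapped through Batf+/+ array 3, with a difference of 0.12 ± 0.082. The probe set 1421392_a_at separated the genotypes, with 0.13, 0.24 and 0.17 on the Batf-/- arrays and 0.0085, 0 and -0.037 on the Batf+/+ arrays, whereas the other gave a difference of 0.055 with overlapping genotypes.

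Tnfaip3 encodes A20, the ubiquitin-editing enzyme that NF-kB induces to shut itself off. It was at 0.10, -0.026 and -1.09 on Batf-/- arrays 1, 2 and 3 and at 0.029, 0.043 and -1.48 on Batf+/+ arrays 1, 2 and 3. The array numbered 3 stood far below its companions in each genotype, in both probe sets, and the genotypes overlapped. This left a difference of 0.13 ± 0.43 with a 95% interval of -0.84 to 1.11, by far the widest of the 28 genes. Tnip1 and Tnip2 encode A20-binding inhibitors, with differences of -0.10 ± 0.092 and -0.0072 ± 0.078. Cyld, a deubiquitinase that also restrains NF-kB, had 0.022 ± 0.080, with its 4 probe sets between 0.0051 and 0.039.

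Part of the spread above lay between arrays of a genotype. Batf+/+ array 3 was the lowest of its genotype in 20 of the 28 genes (71.4%), against 27.6% of all genes. It was also the lowest in 16 of 32 measured upstream receptors and adaptors (50%). In the measured textbook targets of NF-kB it was the lowest in 11 of 35 (31.4%), which is near the share of all genes. Its frequent low position was thus seen in the upstream genes too, and not in the targets. Batf-/- array 3 was the lowest of its genotype in 13 of the 28 genes, against 27.6% of all genes, and Batf-/- array 1 in 10, against 46.9%. Both arrays numbered 3 were the lowest of their genotypes in 9 of the 28 genes (32.1%), against 13.3% of all genes. With each of the 2 arrays low in many of the genes, such a count does not show that they were low together. These 9 were Rel, Nfkb2, Nfkbia, Nfkbiz, Map3k14, Traf4, Traf6, Tnfaip3 and Tnip1. The inhibitor Nfkbie was not among them, as Batf-/- array 3 was the highest of its genotype for that gene. The shares describe these 6 arrays and carry no test.

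Within a number, Tnfaip3, Nfkbiz and Nfkbia were closer between genotypes. They are among the genes lowest on both arrays numbered 3, so this closeness follows in part from that choice. For Tnfaip3 the difference between Batf-/- and Batf+/+ arrays of the same number was 0.073, -0.069 and 0.40 for numbers 1, 2 and 3, for Nfkbiz it was 0.050, 0.11 and 0.25, and for Nfkbia 0.0053, 0.12 and 0.14. Nfkbiz and Nfkbia were thus above 0 in every pair, and Tnfaip3 was not. Nfkbie, which was not lowest on both arrays numbered 3, gave -0.24, 0.044 and 0.28 for numbers 1, 2 and 3. With the number as a replicate block the standard error of Tnfaip3 was 0.096, that of Nfkbiz was 0.068 and that of Nfkbia 0.064, with differences unchanged by construction. The standard error of Nfkbie was 0.10 with the block and 0.11 without it. The smallest adjusted p of the 28 genes in that fit was 0.149, for Birc2, whose pairs gave 0.22, 0.24 and 0.54. The pairs had 1 sign in 11 of the 28 genes, 5 above 0 and 6 below, against 34.3% of all genes.

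**Figure D3:**
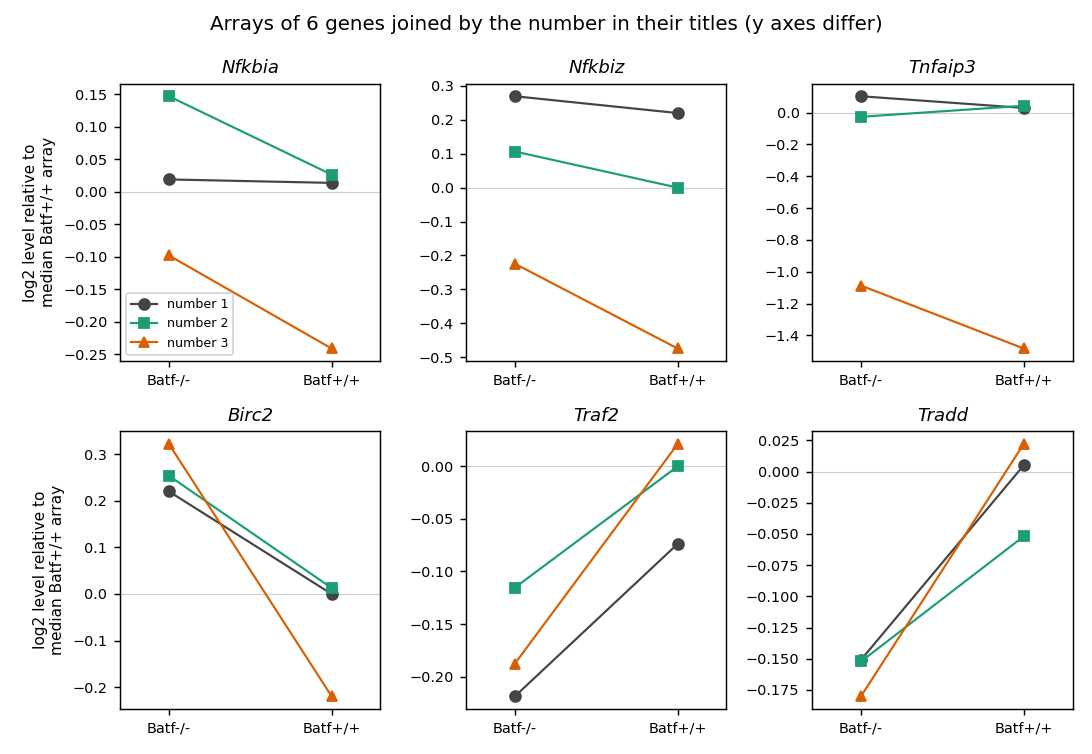
Log2 level relative to the median Batf+/+ array (y axis, a scale for each gene) of 6 NF-kB pathway genes in Batf-/- cells (left) and Batf+/+ cells (right), with lines joining arrays that carry the same number in their titles. For Nfkbia, Nfkbiz and Tnfaip3 the line of number 3 lies below the others at both ends. The lines slope the same way in all 3 pairs for Birc2, Traf2 and Tradd and also for Nfkbia and Nfkbiz, but not for Tnfaip3.

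The balance of signs over the pathway rested on the Batf+/+ arrays. Without Batf+/+ array 3 the median difference of the 28 genes was -0.040, with 10 genes above 0, and without Batf+/+ array 1 it was 0.060, with 21 genes above 0. No direction can therefore be given for the pathway as a whole.

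**Figure D4:**
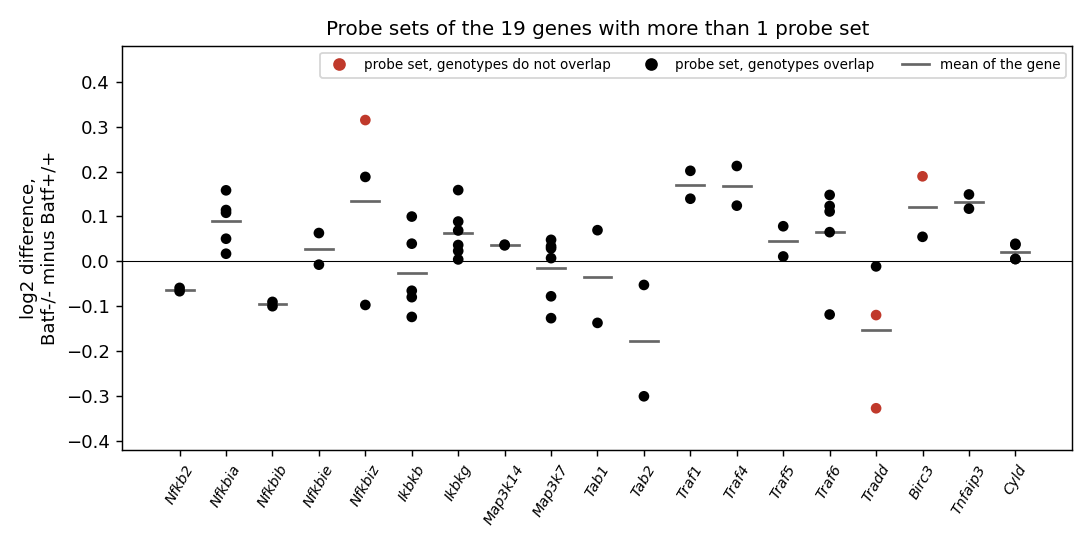
Log2 difference between Batf-/- and Batf+/+ Treg cells (Batf-/- minus Batf+/+, y axis) of each probe set (points) and their mean (bars) for the 19 NF-kB pathway genes with more than 1 probe set (x axis). All probe sets lie above 0 for 9 genes, all lie below 0 for 4 genes and both signs occur in 6 genes.

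Different probe sets of a gene gave a check on these values that did not depend on averaging. Of the 68 probe sets, 0 were called when every probe set was tested, against 0.713% of all probe sets with 1 gene, and 4 had an unadjusted p below 0.05, against 6.9%. These were the probe sets of Nfkbiz, Tradd, Birc2 and Birc3 given above. Of the 19 genes with more than 1 probe set, 9 had all of them above 0, 4 had all below 0, and 6 (Nfkbie, Nfkbiz, Ikbkb, Map3k7, Tab1 and Traf6) had both signs.

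Promoter windows are given for the genes on which these results turn, Birc2 and Birc3 for the largest difference and its neighbour, and Nfkbia and Tnfaip3 for the spread between arrays. The sequences are RefSeq's on build GRCm38.p6, from 250 bases before to 50 bases after a start site, on the minus strand in all 4 cases, and 23 of the 28 genes had such a window (33 windows in all). Relb, Nfkbiz, Ikbkb, Tab1 and Tradd had none in the table. Both strands were searched for TGANTCA, the core that AP-1 factors bind, and for a loose form of the kappa B element, 3 Gs, any 5 bases and 2 Cs, where matches may overlap each other. Capitals mark the matches to either motif.
Birc2, chr9:7836757-7837056: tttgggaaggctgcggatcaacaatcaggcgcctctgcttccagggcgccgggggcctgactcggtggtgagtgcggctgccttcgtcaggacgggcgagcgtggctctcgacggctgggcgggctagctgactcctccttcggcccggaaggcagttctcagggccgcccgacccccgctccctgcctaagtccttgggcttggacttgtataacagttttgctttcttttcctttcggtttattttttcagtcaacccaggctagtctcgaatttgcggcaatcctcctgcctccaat
Birc3, chr9:7873121-7873420: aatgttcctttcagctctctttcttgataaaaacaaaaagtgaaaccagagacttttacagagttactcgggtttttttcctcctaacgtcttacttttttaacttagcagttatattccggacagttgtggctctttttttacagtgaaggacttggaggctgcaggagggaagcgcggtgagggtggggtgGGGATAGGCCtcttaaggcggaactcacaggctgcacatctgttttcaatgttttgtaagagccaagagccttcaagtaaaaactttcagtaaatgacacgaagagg
Nfkbia, chr12:55492598-55492897: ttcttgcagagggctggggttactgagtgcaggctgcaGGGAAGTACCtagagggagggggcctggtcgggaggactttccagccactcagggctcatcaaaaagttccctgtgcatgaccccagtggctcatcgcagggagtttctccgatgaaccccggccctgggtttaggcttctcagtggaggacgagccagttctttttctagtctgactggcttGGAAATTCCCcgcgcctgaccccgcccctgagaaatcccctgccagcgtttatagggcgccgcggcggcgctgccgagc
Tnfaip3, chr10:19015361-19015660: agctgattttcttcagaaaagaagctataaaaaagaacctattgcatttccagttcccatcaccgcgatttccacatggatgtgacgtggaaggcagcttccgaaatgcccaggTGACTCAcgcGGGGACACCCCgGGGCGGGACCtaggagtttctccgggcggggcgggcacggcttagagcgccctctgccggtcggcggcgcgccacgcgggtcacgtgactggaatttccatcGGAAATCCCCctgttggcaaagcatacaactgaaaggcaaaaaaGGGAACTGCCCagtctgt

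The windows differ in these motifs. The windows of Birc2 hold neither motif, and that of Birc3 holds 1 match to the kappa B form, starting at -57 from the start site. The window of Nfkbia holds 2, starting at -212 and -29, and the Tnfaip3 window shown holds 6, some overlapping, together with 1 AP-1 core that starts at -136 and lies just before those at -126, -125 and -114. A second Tnfaip3 window, not shown, holds 2 overlapping matches to the kappa B form and no AP-1 core. Over the 33 windows, 7 (21.2%) held TGANTCA, against 7.81% of 32851 windows of all genes, and 23 (69.7%) held the kappa B form, against 50.8%. The 7 windows with the AP-1 core belong to 5 genes, Ikbke, Ikbkg, Nfkb2, Nfkbie and Tnfaip3, with differences from -0.063 to 0.13, of which 0 were called. A match is a description of letters in a window, and windows of a gene can overlap.

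Genes around the pathway were counted from 2 lists of textbook genes, chosen with earlier results of these data known. Of 32 measured receptors and adaptors upstream of NF-kB, 1 fell and 0 rose (0.830% and 0.313% of all genes did), with a median log2 difference of -0.0035. The genotypes did not overlap in 7 of the 32 (12.0% of all genes), and 6 had an unadjusted p below 0.05 (7.69% of all genes). This was Il18r1, a chain of the interleukin 18 receptor that signals through Traf6, at -1.16, -1.21 and -1.54 on the Batf-/- arrays and at 0.017, 0 and -0.0058 on the Batf+/+ arrays (difference -1.31 ± 0.10 SE, limma adjusted p = 0.00059). The receptor differed without overlap, while Traf6 below it had a difference of 0.066. Of 35 measured textbook targets of NF-kB, 4 fell and 1 rose (0.830% and 0.313% of all genes did), with a median of -0.040, against 0.0047 over all genes. The genotypes did not overlap in 13 of the 35 (12.0% of all genes). Batf-/- arrays were above in 6 and below in 7 (5.50% and 6.55% of all genes). An unadjusted limma p below 0.05 was found in 11 of the 35 (7.69% of all genes). These counts are above the shares of all genes, and they carry no test. Nfkbid is in this list and among the 28 pathway genes.

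The targets that fell were Cd83, an activation marker, Cd44, an adhesion receptor of activated T cells, and the chemokines Ccl5 and Cxcl10, and the target that rose was Irf4, a transcription factor that binds DNA together with Batf. Their log2 differences were -1.31 ± 0.085 for Cd83, -0.64 ± 0.090 for Cd44, -1.75 ± 0.30 for Ccl5, -1.51 ± 0.22 for Cxcl10 and 0.54 ± 0.10 for Irf4 (SE, limma adjusted p = 0.000202, 0.0106, 0.0285, 0.0131 and 0.0454). The calls of Cd83 and Il18r1 held in all 11 alternatives. The call of Cd44 was lost without Batf-/- array 2 (adjusted p = 0.0525) or Batf+/+ array 1 (0.0543) or 2 (0.0590), and that of Cxcl10 without Batf-/- array 2 (0.0583) or Batf+/+ array 1 (0.0635) and after quantile normalization (0.166). The call of Ccl5 was lost in 7 alternatives, with limma adjusted p from 0.0615 to 0.153, among them the replicate block (0.0768) and the fits without array 1 or 2 of either genotype. The call of Irf4 was lost in 8, with adjusted p from 0.0509 to 0.188, among them the fits without Batf-/- array 1 or 3 or without any one of the Batf+/+ arrays. Irf8, a related factor named after its value was seen, had a difference of 0.50 ± 0.11 (adjusted p = 0.0919) and passed in the fit with the block (0.0306) and in the one that left out Batf-/- array 2 (0.0389).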

How the data were processed

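RNA of 6 samples was measured on a 3' expression array. The deposited log2 values came from RMA, per the submitters' processing notes, with its version not given in the sources used here and the log base taken as 2. In all 45101 probe sets the median of the Batf+/+ arrays is exactly 0, a centring that no label describes. It removes absolute levels, so no filter on low values was possible and signal over background is unknown. The number of arrays limits the precision. Probe sets with several genes (932), none listed (9160) or controls (64) were left out, and the probe sets of a gene were averaged.

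Genotypes were compared with limma 3.58.1 in R 4.3.3 (lmFit, eBayes), genotype alone in the model and p-values adjusted by Benjamini-Hochberg over 18193 genes. The test was also tried on simulated data with independent noise and planted differences larger than those of the 28 genes. That trial had no effect of array number and does not bear on differences of the sizes given here. The genes described are the listed 32 (28 measured), Batf and the called genes of 2 textbook lists. Members and lists were chosen with earlier results of these data known. Of the 36 and 38 genes of those lists, 32 and 35 were measured.

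The array numbers occur in the titles of both genotypes. Same-numbered arrays deviated together from the means of their genotypes, with correlations over genes of 0.407, 0.154 and 0.413, all above the minimum of 0.1. The pairing is therefore inferred from the values, since no label says what a number marks. Alternatives were the number as a replicate block, quantile normalization, equal array medians, no probe sets with shared-sequence suffixes, every probe set tested, and each array left out.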

Additional observations from a re-analysis of the deposited data

How the results depend on the processing

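The counts of 0 called genes among the 28 NF-kB pathway genes, higher or lower, held in all 11 alternatives. Over all genes, 57 higher and 151 lower calls became 91 higher and 202 lower with the replicate block. They became 23 higher and 58 lower after quantile normalization, and 31 to 51 higher and 73 to 141 lower with an array left out. Quantile normalization acted on centred values, with an SD of 0.24 to 0.26 on the Batf-/- arrays and 0.12 to 0.17 on the Batf+/+ arrays. It makes these spreads equal, so it shrinks large Batf-/- deviations by construction. The higher count was 36 without Batf-/- array 1 and 31, 32 and 32 without Batf+/+ array 1, 2 or 3, and the lower count was 94 without Batf-/- array 2 and 78 and 73 without Batf+/+ array 1 or 2. The replicate block changed no call of a pathway gene or of Batf. Batf was called in all 11 alternatives, with log2 differences from -3.15 to -2.02. The 1 lower call among upstream genes became 2 when every probe set was tested, through Tnfrsf9, named after its value was seen (limma adjusted p = 0.0287). The 1 higher call among targets became 2 with the replicate block, through Irf8, 0 after quantile normalization, with equal array medians or with every probe set tested, and 0 to 2 with an array left out, and the 4 lower calls became 2 after quantile normalization and 1 to 4 with an array left out. These list alternatives were chosen after seeing the data.

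Of 304 alternative values of pathway genes, 281 kept direction and side of the threshold and 23 turned sign, in 14 genes, all with a 95% interval that includes 0. After quantile normalization Nfkbie was -0.00016 and Ikbkb 0.059, and Ikbkb was 0.025 without probe sets of shared sequence. With an array left out, the genes that turned sign ranged from -0.068 to 0.015 (Rela), -0.14 to 0.026 (Nfkb2), -0.15 to 0.0018 (Nfkbid), -0.072 to 0.13 (Nfkbie), -0.059 to 0.29 (Nfkbiz), -0.11 to 0.037 (Ikbkb), -0.0085 to 0.065 (Map3k14), -0.062 to 0.038 (Map3k7), -0.11 to 0.029 (Tab1), -0.018 to 0.097 (Traf5), -0.0048 to 0.14 (Traf6), -0.37 to 0.51 (Tnfaip3), -0.042 to 0.038 (Tnip2) and -0.038 to 0.071 (Cyld). The cause was not tested. Without probe sets of shared sequence 24 of the 28 genes have a value. A filter on low values was not run.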
